A study of Homo sapiens with 2 samples.

Results

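Of the 7643 peaks that the authors called in an RNA immunoprecipitation (IP) from Huh-7 cells, 850 (11.1%) lay within a long internal exon. They belonged to 510 exons of 467 genes. Each peak was given to the gene with which it shared the most exonic bases on its strand, after the listed exons of each gene had been merged where they overlapped. A peak was kept when it overlapped a single merged exon of at least 1000 bases that was neither the first nor the last of its gene. Every one of the 850 peaks lay with all its bases inside its exon. No measured value of the libraries entered this choice beyond the peak calls themselves, and ties between genes went to the gene with more IP reads.

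The series held 2 libraries, 1 IP and 1 input, both from wild-type Huh-7, an established human hepatocellular carcinoma line, grown without treatment. Poly(A) selection of the RNA is stated in the protocol attached to both samples, which differs from the series text on the antibody. In RNA immunoprecipitation sequencing (RIP-seq), RNA that comes down with a protein is sequenced beside the RNA of the starting material, the input. The antibody is stated in 2 ways. The series text names the splicing factor SRSF7, the treatment label of the IP reads SPSF7 and that of the input reads none, whereas the protocol attached to both samples names the m6A reader YTHDF2, so the libraries are called the IP and the input here. With 1 library per group there is no spread between replicates and no test was possible. Intervals of ratios and shares cover counting error only. Intervals of medians reflect the spread over the peaks or genes listed, taken as if independent. Neither kind covers differences between replicate libraries.

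Most internal exons of human genes are short, and the splicing machinery is thought to recognise them by pairing their ends across the exon, helped by serine/arginine-rich (SR) proteins bound to the exon itself. Long internal exons are the exception, and some of them encode large unstructured or repetitive stretches of scaffold, chromatin and centrosome proteins. SRSF7 is an SR protein with roles in splicing, polyadenylation and the export of mRNA. N6-methyladenosine (m6A), the mark that YTHDF2 reads to hasten mRNA decay, is known to be frequent in long internal exons and near stop codons.

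Some exons called internal in the merged gene model also hold the start of a shorter transcript, and 33 of the 510 host exons overlapped a RefSeq start window of their own gene. The sequence below is shown because a peak lay over the bases just before such a start. It holds the 250 bases before a RefSeq start site of NR2F2, which encodes the nuclear receptor COUP-TFII, at chr15:96332315-96332564 on the plus strand (GRCh38.p14). Most of the bases in capitals encode, in the full-length transcript, part of the zinc finger domain that contacts DNA. Capitals mark the 220 bases inside the peak.

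NR2F2: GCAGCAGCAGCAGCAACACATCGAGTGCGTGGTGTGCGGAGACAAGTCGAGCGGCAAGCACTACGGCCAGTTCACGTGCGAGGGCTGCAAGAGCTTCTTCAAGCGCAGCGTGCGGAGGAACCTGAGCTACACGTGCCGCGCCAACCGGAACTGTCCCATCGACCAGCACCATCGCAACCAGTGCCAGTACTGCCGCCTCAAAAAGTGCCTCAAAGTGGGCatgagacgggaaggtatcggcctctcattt

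That peak, at chr15:96332234-96332534, had a deposited fold of 3.58 (p = 0.00152 in the authors' deposited table) and lay in exon 2 of 5, of 1922 bases. Together with 2 neighbours of folds 2.40 and 2.49 it made up all the peaks of NR2F2, which had 395 IP and 110 input reads. The peak ended before the start site of the shorter transcript. In MEPCE, which encodes the methylphosphate capping enzyme of 7SK RNA, a peak of fold 2.24 began at base 100429831 of chromosome 7, where both the merged exon and a RefSeq transcript start. In TRMT1, a tRNA methyltransferase, 146 bases of a peak of fold 2.28 fell in the 250 bases before a RefSeq start site.

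The peaks were short against the exons that held them. Their length ran from 51 to 3120 bases with a median of 151 (quartiles 76 and 276), and 29 peaks had 1000 bases or more. The 51-base peaks, the shortest class, numbered 158, and 780 of the 850 lengths were a multiple of 25 bases plus 1, which is a property of the windows in the authors' peak list. Lengths and covered shares, here and below, count the whole genomic span of a peak. In some merged exons a listed exon ends before another begins, so a span there can include bases that some transcripts may lack. Host exons were 1003 to 18173 bases long with a median of 2018.5 (quartiles 1379 and 3210). The median host exon had 11.6% of its bases inside such peaks (quartiles 4.47% and 22.6%), and 35 of the 510 were covered over more than 50% of their length. The exons sat in genes with a median of 18 merged exons, 47 of them as the second and 93 as the next-to-last exon.

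Deposited folds were modest for most of these peaks. The median fold was 2.80 (95% order-statistic interval 2.67 to 2.86, quartiles 2.34 and 3.88, n = 850), beside 2.54 (2.51 to 2.61) for the 1332 peaks within a single shorter internal exon. Peaks within a first exon had a median of 2.83 (n = 432), those within a last exon 2.86 (n = 1200), and those that overlapped several exons 2.68 (n = 3719). The 110 peaks of single-exon models had 2.81. The interval of the long internal exons therefore lay above that of the shorter internal exons and overlapped those of the first and last exons. Peaks of 1 exon share its transcript and are not replicates, so these intervals are descriptions of the list. A false discovery rate of at most 0.05 was reached by 479 of the 850 (56.4%), beside 60.3% of all deposited peaks, and the median p was 0.0132 beside 0.0117.

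**Figure D1:**
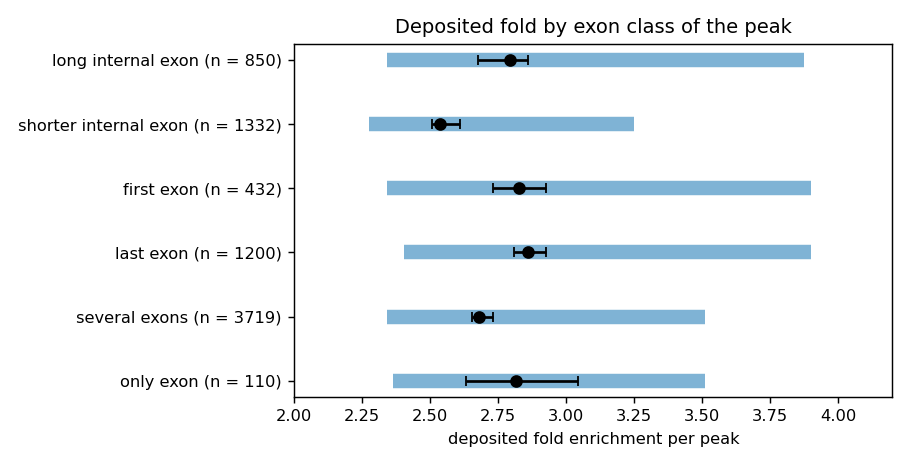
Deposited fold enrichment of the peaks (horizontal axis, linear) by the exon in which they lay (rows). Points are medians, thin bars the 95% order-statistic intervals and thick bars the quartiles; the long internal exons stand at 2.80 and the shorter internal exons at 2.54.

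The same comparison was made inside genes that had peaks of both kinds. In 125 genes with peaks in long and in shorter internal exons, the median fold of the long-exon peaks was the higher in 75 (60%), with medians of 2.80 and 2.57 over these genes. Against last-exon peaks of the same genes the order was the other way, with long-exon peaks higher in 27 of 74 genes (36.5%; medians 2.63 and 2.80). Against first-exon peaks they were higher in 11 of 24 genes, and against peaks that overlapped several exons in 145 of 267. Within genes, then, long-exon peaks stood slightly above those of short internal exons and slightly below those of last exons.

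The 1000-base limit did not mark a step in the folds. The 63 peaks in exons of 900 to 999 bases had a median fold of 2.496 and a median p of 0.0107, and the 71 peaks in exons of 1000 to 1099 bases had 2.55 and 0.0130. Beyond the limit the median fold was 2.57 in exons of 1000 to 1499 bases (194 peaks), 2.73 at 1500 to 1999 (146), 2.83 at 2000 to 3999 (305) and 2.99 at 4000 or more (205). The RPKM ratio of IP to input over the whole gene, which is measured from the same libraries, was 2.02, 2.07, 2.10 and 2.42 at the median in the same 4 groups of peaks. Fold and whole-gene ratio thus ran in the same order over the exon lengths. Depth of the gene moved with the fold as well: the median fold was 3.51 for the 248 peaks of genes with 100 to 499 reads, 2.64 for the 381 with 500 to 1999 and 2.496 for the 213 with 2000 or more. The part of depth in these differences was not tested.

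A few exons carried many peaks. Of the 510 exons, 345 (67.6%) held 1 peak, 94 held 2, 56 held 3 or 4, and 15 held 5 or more, which together accounted for 131 peaks. AHNAK, a giant scaffold protein at the cell cortex, held 33 of them in exon 8 of 10, at chr11:62515902-62534074 on the minus strand. This exon has 18173 bases and was the longest with a peak. The 33 folds lay between 2.08 and 4.94 with a median of 2.41, 28 had a false discovery rate of at most 0.05, and together they covered 42.1% of the exon. AHNAK was measured at 44.2 RPKM in the IP and 17.8 in the input (5076 and 966 reads), a ratio of 2.48 (95% interval 2.31 to 2.66). The peaks along this exon were thus a series of separate stretches. Their median fold was close in number to the ratio of the whole gene. The scaling of the folds is not stated and none below 2 is listed, so the 2 measures may differ in scale.

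SRRM2, a scaffold of the spliceosome and of nuclear speckles, had 11 peaks in its exon of 6701 bases (chr16:2761561-2768261) and 3 in the next exon of 1961 bases. Their spans covered 64.3% and 87.6% of the 2 exons, with folds from 2.18 to 5.20. In both merged exons a listed exon ends before another begins, so these shares need not be continuous exonic coverage. SRRM2 stood at 75.0 RPKM in the IP and 22.1 in the input, a ratio of 3.40 (3.15 to 3.66). BOD1L1, which protects stalled replication forks, had 13 peaks over 47.0% of an exon of 6139 bases, with folds of 2.06 to 3.98 and a gene ratio of 2.27 (2.06 to 2.52). In ZFHX3, a zinc finger and homeobox transcription factor, 10 peaks covered 55.1% of an exon of 5460 bases and 3 more lay in one of 2768 bases. Their folds were 2.20 to 5.85, at a gene ratio of 4.01 (3.44 to 4.69). KANK1, an adaptor at focal adhesions, had 8 peaks of folds 2.12 to 3.77 in 2661 bases, the densest of these runs, and 1 in an exon of 4785 bases. SPEN, a transcriptional corepressor that binds RNA, had 9 peaks in 8176 bases, of which 7 had folds of 2.06 to 4.49 and the other 2 had 23.3 and 29.7. Over all 850 peaks the fold was 1.37 times the RPKM ratio of the host gene at the median, as it was over all deposited peaks (1.37). It was 1.40 times for shorter internal exons, 1.65 for first exons, 1.53 for last exons and 1.29 for several exons. Taken against the gene ratio, long-exon peaks thus did not stand above those of shorter internal exons at the median over all peaks. Across the 467 host genes the median fold and the ratio were weakly correlated (Pearson's r = 0.15, Spearman's rho = 0.15, on log2 values of the same 2 libraries).

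**Figure D2:**
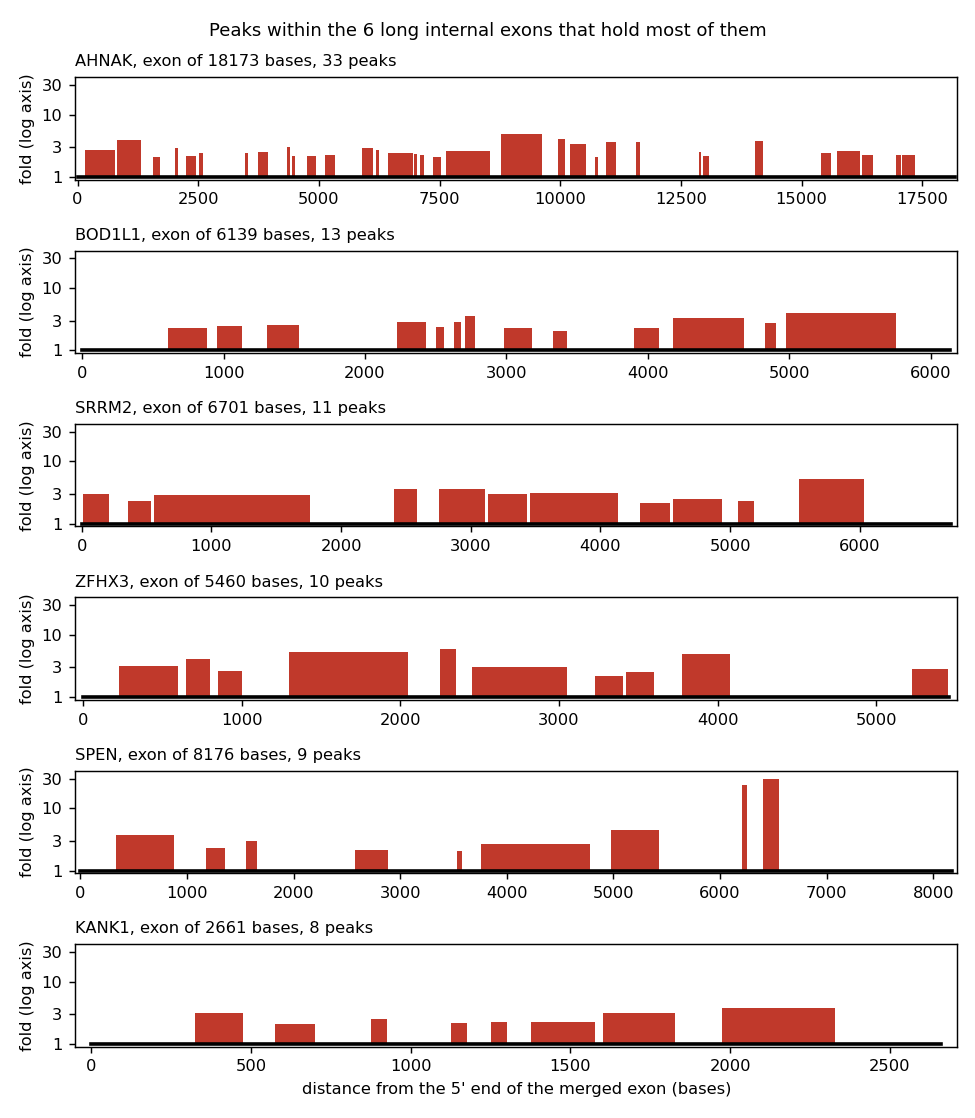
Peaks along the 6 long internal exons with the most of them (horizontal axis, bases from the 5′ end of the merged exon; black line, the exon). Each box spans a peak and rises to its deposited fold on a log axis; the boxes of AHNAK are spread over the exon of 18173 bases, and the 2 tall boxes of SPEN are its folds of 23.3 and 29.7.

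The 10 peaks with the smallest deposited p came from well-covered genes, and their folds lay between 2.02 and 3.42. RRBP1, a ribosome-binding protein of the endoplasmic reticulum, led with a peak of 726 bases at chr20:17658612-17659337 (fold 2.71, p = 5.70e-123 in the authors' deposited table). A second peak of the same exon had a fold of 2.41. Another, whose span took in 86.3% of a merged exon of 1222 bases, had 2.05. The gene stood at 617 RPKM in the IP and 222 in the input (25394 and 4314 reads). ANKRD11, a chromatin regulator, followed with a peak of 2301 bases at chr16:89281551-89283851 (fold 3.42, p = 1.60e-87 in the authors' table) in an exon of 8172 bases. The phosphatase gene PPM1G (fold 2.11), the spliceosomal helicase gene DDX23 (2.08 and 2.13) and EWSR1, an RNA-binding protein (2.02), were also among the 10 smallest p. So were DSP, the desmosomal protein desmoplakin (3.22), and PRRC2C, a stress granule protein (3.04). In DSP, 4 peaks covered 73.2% of an exon of 2295 bases. Small p thus went with read depth: 74.6% of the peaks of genes with 2000 or more reads reached a false discovery rate of 0.05, and 39.9% of those of genes with 100 to 499.

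The highest folds formed a separate group. Folds above 20 occurred in 58 of the 850 peaks (6.82%, beside 5.10% of all deposited peaks), in 49 genes. All 58 were whole multiples, 11 to 25, of 2.12 within 0.01, and 2.12 is the ratio of IP to input reads assigned to genes. Their p lay between 0.00272 and 0.0147 and their median length was 101 bases. The other 792 peaks reached at most 15.6 and had a median of 2.67. The labels and file headers do not say what such a multiple measures. BCAT2, the mitochondrial branched-chain aminotransferase, had the highest fold, 53.0, from a gene with 74 IP and 7 input reads. KMT2D, a histone H3 lysine 4 methyltransferase, had one of 50.9 among 7 peaks in 6 long internal exons, and the other 6 had folds from 2.83 to 7.80. MPRIP, a myosin phosphatase regulator, had 44.5, DENND2B and NUBP2 had 42.4 each, MRPL43 and TCEAL4 40.3 each, and MLYCD and PIGT 38.2 each. CC2D1A, PHC3 and DST had 36.0 each.

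MAPK7, the ERK5 kinase, was the gene in which such folds were most frequent. Its exon 2 of 4, of 4214 bases, held 5 peaks with folds of 8.19, 15.6, 29.7, 29.7 and 33.9. The gene had 158 IP and 8 input reads, a ratio of 9.32 with an interval of 4.61 to 22.0. Of the 5 longest host exons, AHNAK's was covered over 42.1% of its length and the other 4 over 0.509% to 5.88%. MUC12, a membrane mucin, had 1 peak of 76 bases (fold 23.3) in 14935 bases, PAQR3, a Golgi-anchored Raf inhibitor, 1 of 101 bases (6.63) in 9844, and PHC3, a Polycomb group protein, 1 of 101 bases in 9801. MLYCD, malonyl-CoA decarboxylase, had 3 peaks over 5.88% of an exon of 15349 bases, and shares exon bases with another gene. At the low end, SETD2, a histone H3 lysine 36 methyltransferase, C1orf35 and PRRC2B had the lowest folds, 2.003, 2.004 and 2.006, at the authors' limit of 2.

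Merging listed exons can join exons that no transcript has in full, so the host exons were divided, after the values had been seen, by what they were made of. In 273 exons a listed exon ended before another listed exon of the same merged exon began. Whether a transcript has an intron between them was not checked. These composite exons held 405 peaks with a median fold of 2.65 (quartiles 2.31 and 3.71). The other 237, called simple, held 445 peaks with a median of 2.86 (2.41 and 3.90). In composite exons 17.3% of peak centres lay where the number of listed exons was at its maximum, and in simple exons 56.6%. BOD1L1, ZFHX3, SPEN and DSP are simple in this sense and AHNAK, SRRM2, RRBP1 and MAPK7 composite. In 109 exons of 100 genes every listed exon had at least 1000 bases. They held 228 peaks, 26.8% of the total, with a median fold of 2.94 and a median gene ratio of 2.27. The folds of the peaks were thus no lower where every listed exon had at least 1000 bases.

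Whether long internal exons carried peaks more often than short ones was counted over genes with at least 100 reads in both libraries together. Of 104976 internal exons in such genes, 10.5% overlapped a peak of any kind. Among the 5414 long ones 905 did so (16.7%, exact binomial interval 15.7% to 17.7%), and 502 (9.27%) held a peak wholly their own. Among the 99562 shorter ones the share was 10.1% (9.93% to 10.3%). By length the share was 8.61% under 150 bases, 11.6% at 150 to 299 and at 300 to 499, 14.3% at 500 to 999, 15.1% at 1000 to 1499, 17.3% at 1500 to 1999, 17.4% at 2000 to 3999 and 19.2% at 4000 or more. A long exon offers more bases to a peak, and per base the order was the reverse. Peaks covered 4.59% of the bases of long internal exons and 6.29% of those of shorter ones, with 3.19% in exons of 4000 or more bases. First exons had 3.21% and last exons 1.62% of their bases in peaks. Counted over peaks of any kind, long internal exons thus carried a peak more often per exon and were covered less per base than short internal exons. These shares include the 3719 peaks that overlapped several exons, whose spans take in every exon they cross. For peaks within a single exon alone, the shares of shorter exons and of bases were not counted.

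In genes with more reads both measures were higher and their order was the same. In genes with at least 2000 reads, 33.5% (29.5% to 37.7%) of 537 long internal exons and 26.3% (25.4% to 27.2%) of 9705 shorter ones overlapped a peak, with 14.7% and 17.6% of their bases covered. The share of exons with a peak was 14.5% in simple and 19.4% in composite long exons of genes with at least 100 reads, and 19.2% in those long in every listing. At 2000 reads simple and composite exons stood the other way round, at 34.8% (28.6% to 41.3%) and 32.6% (27.4% to 38.1%), with overlapping intervals, and 46.8% of the 62 exons long in every listing overlapped a peak (34.0% to 59.9%).

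**Figure D3:**
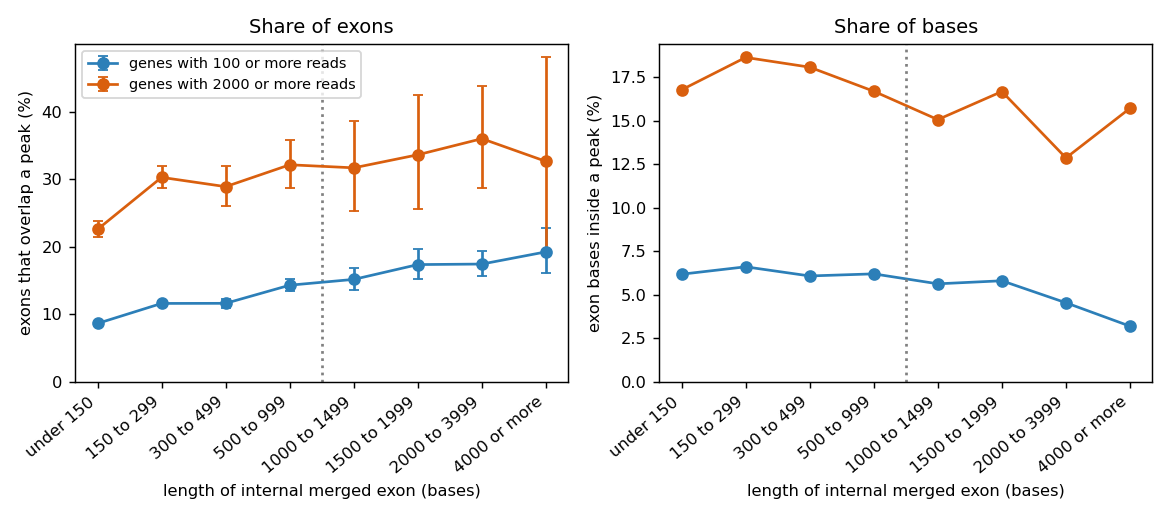
Share of internal exons that overlap any peak (left) and share of their bases inside peaks (right), by length of the merged exon, for genes with at least 100 reads (blue) and at least 2000 reads (orange). Bars on the left are exact 95% binomial intervals and the dotted line marks 1000 bases; at 100 reads the share of exons climbs from 8.61% to 19.2% while the share of bases goes from 6.17% to 3.19%.

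Along the exon the peaks had little preference for a place. The centre of a peak lay at 47.6% of the exon length from the 5′ end at the median (quartiles 23.3% and 71.3%). Of the 850 peaks, 707 (83.2%) kept 100 or more bases from both ends, 3 touched an end, and the median distance to the nearer end was 412.5 bases. Peaks that reach into a neighbouring exon are left out by the rule, which thins the ends, so the profile was counted again over all peaks in the 5414 long exons. Then 5.78% of the first 100 bases, 5.85% of the last 100 and 4.48% of the bases between them were inside a peak. When each exon was cut into 10 equal parts, the share was 4.23% to 5.20%. The edges were thus covered slightly more than the middle, in simple exons (5.56% and 5.11% beside 4.10%) as in composite ones (6.04% and 6.75% beside 4.86%).

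**Figure D4:**
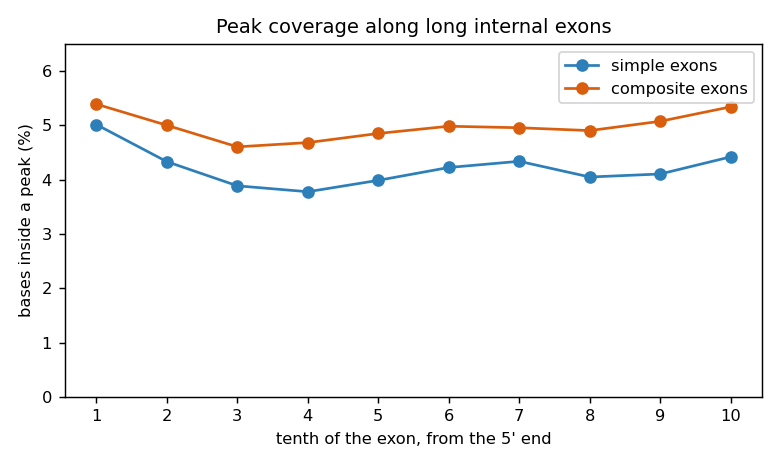
Share of bases inside any peak (vertical axis, percent) in 10 equal parts of the long internal exons, counted from the 5′ end, for simple (blue) and composite (orange) exons of genes with at least 100 reads. Over both kinds together the parts lie between 4.23% and 5.20%, and the composite exons are the higher in every part.

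The host genes as a whole had more IP than input signal. This is the same contrast from which the peaks were called and is given as a description. Of the 467 host genes, 461 passed a minimum mean of 1 RPKM. Their median log2 ratio of IP to input was 0.81 on the log2(RPKM + 1) scale (interval 0.78 to 0.88), beside 0.14 over all 14057 genes tested. At least 2-fold higher were 152 host genes (33.0%), beside 11.3% of all genes tested, and 1, SH3D19, was at least 2-fold lower, beside 8.25%. Other scalings move all genes together: the median of all genes became 0 when centred, 0.58 when scaled to genes without a peak and 1.21 when both libraries were given the same RPKM sum, and that of the host genes 0.67, 1.31 and 1.98. The distance between both medians was 0.67 to 0.77 under these scalings. The 2552 genes whose peaks were all of another kind had a median of 0.68, with 22.4% at least 2-fold higher, and the 11044 genes without a peak one of −0.04.

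Genes were also compared by whether they had a long internal exon. The 4048 tested genes with one had a median of 0.26 and the 10009 without 0.08, but the former are longer and better covered, and 9.46% of the former and 12.1% of the latter were at least 2-fold higher. Among genes of under 3000 exonic bases the medians were 0.04 (interval −0.08 to 0.15) with one and −0.02 (−0.05 to 0.03) without, and 6.67% and 15.6% were at least 2-fold higher. Among those of 3000 to 5999 bases the medians were 0.13 and 0.13. Among those of 6000 or more they were 0.32 (0.29 to 0.34) and 0.23 (0.17 to 0.26), so the intervals did not overlap in the longest genes alone. The host genes had a median exonic length of 8936 bases, beside 3712 for all genes tested. Of 3467 genes with a long internal exon and at least 100 reads, 13.2% hosted a peak within it.

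**Figure D5:**
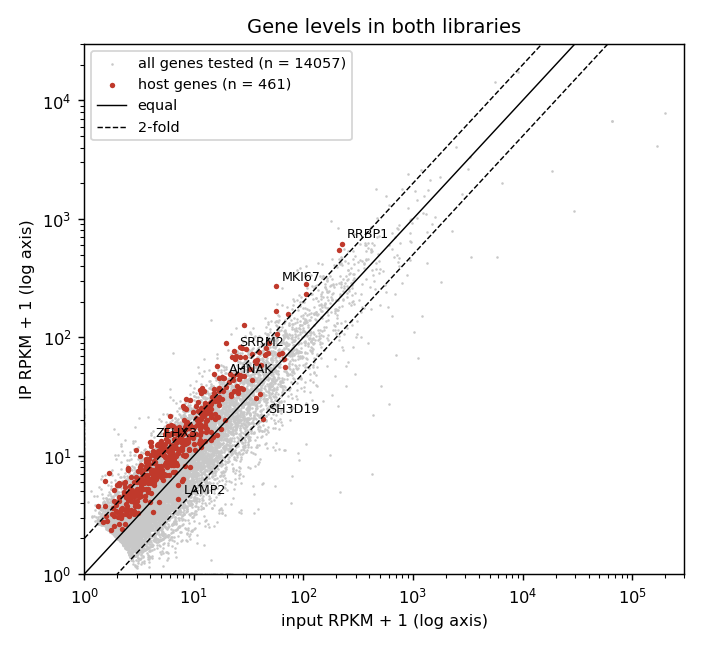
Level of each tested gene in the IP against the input (RPKM + 1, both axes log), with host genes of long-exon peaks in red (n = 461) and all tested genes in grey (n = 14057). The solid line marks equal levels and the dashed lines a 2-fold difference; nearly all host genes lie above the solid line, and SH3D19 lies below the lower dashed line.

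The host genes were spread over several functions. All but 5 were protein-coding in RefSeq, with 1 long noncoding RNA and 4 symbols that had no match. The lists that follow hold many genes known for long exons and were compiled with earlier results of these data known, so their shares are no independent evidence. Each count is of list members with a long internal exon and at least 100 reads, beside 13.2% of all such genes. No tested gene of the lists, host or not, was at least 2-fold lower. Counts at least 2-fold higher over all tested genes of a list, hosts included, stand here for comparison. They were 13 of 28 for cytoskeleton and scaffolds, 21 of 37 for chromatin regulators and 10 of 28 for transcription factors. They were 10 of 27 for RNA processing, 7 of 22 for mitosis and centrosome, 4 of 25 for DNA repair and 2 of 17 for liver genes. Cytoskeletal and scaffold proteins had the largest share of hosts, 17 of 30 (56.7%) with 82 peaks, 10 of the 17 at least 2-fold higher. PLEC, the plectin that links intermediate filaments, had 5 peaks of folds 2.14 to 3.96 in an exon of 3381 bases, at a gene ratio of 3.12 (2.84 to 3.43). MAP1A, a microtubule-associated protein, had 4 of folds 2.28 to 2.92 in 8185 bases, at 3.30 (2.45 to 4.54). The Golgi tethers GCC2 and TRIP11 had the lowest ratios, 1.14 (0.959 to 1.35) and 1.28 (1.11 to 1.48). They held peaks of fold 2.44 and of 2.99 and 4.29, with false discovery rates above 0.05 (0.0857, 0.0756 and 0.0607). Other peaks named in these lists were also kept at any false discovery rate. The list thus ran from genes near equality to genes 3-fold higher.

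Chromatin regulators hosted peaks in 17 of 34 genes (50%), with 31 peaks, and 9 of the 17 were at least 2-fold higher. Over the 37 tested genes of the list 21 were, and the median log2 ratio was 1.17 in the hosts and in the whole list. KMT2B, another histone H3 lysine 4 methyltransferase, had the highest ratio, 5.08 (3.87 to 6.76), with 1 peak of fold 4.26 in 2021 bases. ARID1A, a subunit of the BAF remodelling complex, had 3 peaks of folds 3.70 to 3.98, at 4.05 (3.53 to 4.67). TET2, which oxidises methylcytosine, and NIPBL, the cohesin loader, had the lowest ratios, 1.32 (1.04 to 1.69) and 1.49 (1.34 to 1.66). The TET2 peak was one of those with a fold above 20, at 27.6, and that of NIPBL had a fold of 2.23 (p = 0.000149 from the authors). Transcription factors and cofactors also reached 50%, with 11 of 22 genes, 29 peaks and 5 hosts at least 2-fold higher. Beside ZFHX3, HIVEP2, a zinc finger protein, had a ratio of 3.68 (2.64 to 5.25) and 2 peaks with folds above 20. REST, the repressor of neuronal genes, had 1.52 (1.27 to 1.82) with peaks of 3.58 and 2.58, and MGA, a MAX partner, 1.59 (1.37 to 1.86) with 1 of 2.28.

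RNA processing genes were hosts in 10 of 21 cases (47.6%), with 35 peaks, 14 of them those of SRRM2, and 5 of the 10 were at least 2-fold higher. SRRM1, a partner of SRRM2 in nuclear speckles, had a ratio of 4.55 (4.19 to 4.95) with 1 peak of fold 3.07, and SCAF1, which carries an SR-rich region, had 3.89 (3.13 to 4.87) with 4 peaks of folds 2.65 to 6.63. SCAF11, a splicing-related SR protein, and RANBP2, a nucleoporin, had 1.32 (1.20 to 1.45) and 1.40 (1.24 to 1.58). Mitosis and centrosome genes were hosts in 7 of 17 cases (41.2%), with 32 peaks and 4 hosts at least 2-fold higher. MKI67, the proliferation marker Ki-67, had the highest ratio, at 271 RPKM in the IP and 55.8 in the input (4.85, 4.63 to 5.08). Its peaks had folds of 2.90 and 3.90 (false discovery rates 0.0214 and 0.0709) in an exon of 1080 bases. CEP350, a centrosomal protein, had a ratio of 2.00 (1.74 to 2.31) and did not pass the 2-fold limit on the log2(RPKM + 1) scale. The gene had 1 peak of fold 5.85 (false discovery rate 0.0809) in 1061 bases. ASPM, a spindle pole protein, stood at 12.0 RPKM in the IP and 10.8 in the input, a ratio of 1.11 whose interval (0.973 to 1.27) includes 1. Its 2 peaks had folds of 2.15 and 2.19 (false discovery rates 0.0597 and 0.0549) in an exon of 4755 bases.

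DNA repair and replication genes were hosts less widely, in 5 of 19 cases (26.3%), with 6 peaks and 2 hosts at least 2-fold higher. TIMELESS, which stabilises replication forks, had 2340 IP and 413 input reads, a ratio of 2.67 (2.41 to 2.98), with 1 peak of fold 2.20 in 1054 bases. TICRR, a replication initiation factor, had 2.39 (1.87 to 3.08) with peaks of 3.70 and 2.47. MDC1, a scaffold at DNA breaks, had 1.87 (1.63 to 2.15) with a fold of 5.85, and ATRX, a chromatin remodeller, 1.53 (1.39 to 1.70) with 2.03. The false discovery rate was 1.32e-06 for the TIMELESS peak. It was above 0.05 for those of TICRR (0.0766 and 0.0541), MDC1 (0.0809) and ATRX (0.0549). BRCA1 was the remaining host, with 1 peak of fold 6.63 (false discovery rate 0.0709) in its exon of 3763 bases, from 140 IP and 30 input reads. All but TICRR were composite exons.

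Genes of liver secretion, receptors and matrix had the smallest share, 2 hosts among 10 (20%) with 4 peaks, 1 of them at least 2-fold higher. F5, coagulation factor V, had 3 peaks of folds 3.02, 3.14 and 3.64 in the exon of 2821 bases that is its exon 13 of 25, with 1193 reads in the IP and 379 in the input, the ratio being 1.48 (1.32 to 1.67). LRP1, a lipoprotein receptor, had 1 peak of fold 3.12 (false discovery rate 0.0695) in 1115 bases, at 2.14 (2.04 to 2.25). Genes of this list without such a peak, named after their values were seen, included APOB, the apolipoprotein of low-density lipoprotein, and FN1, fibronectin. APOB had 38173 IP and 14128 input reads, a ratio of 1.27 (1.25 to 1.30), and 0 peaks in its exon of 7572 bases or elsewhere. FN1 had 43253 and 12217 reads, a ratio of 1.67 (1.64 to 1.70), and 0 peaks. High read numbers over a gene with a long exon thus occurred without a listed peak. ARHGAP5, a RhoGAP, was another such gene, with 6272 IP and 3710 input reads, a ratio of 0.798 (0.766 to 0.831) and 0 peaks.

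In 4 further genes the longest internal exon lay entirely inside the genomic spans of peaks, but the gene held no peak that the rule counted. These were CREBBP and EP300, both histone acetyltransferases, SPTAN1, a spectrin, and CIT, the citron kinase of cytokinesis. Their ratios were 5.91 (5.15 to 6.81), 4.64 (3.92 to 5.53), 3.30 (3.10 to 3.52) and 2.86 (2.31 to 3.58). The long-exon peaks are therefore no full list of the long exons that peak spans cover. Such spans include introns and do not by themselves show enrichment of the exon.

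Peaks also occurred in genes with little or no excess in the IP. The interval of the ratio lay wholly above 1 in 425 host genes, included 1 in 33 and lay wholly below 1 in 9. These counts and the ratios below are for the deposited RPKM. They were not repeated under the other scalings, which move all genes together. SH3D19, an adaptor protein, had 895 IP and 901 input reads, a ratio of 0.469 (0.427 to 0.515), and a peak of fold 2.17 in 1026 bases. LAMP2, a lysosomal membrane protein, had 182 and 161 reads, a ratio of 0.533 (0.429 to 0.663), and a peak of 2.54 with a false discovery rate above 0.05. RPL31, a ribosomal protein, had 1711 and 973 reads, a ratio of 0.830 (0.766 to 0.898), and a 51-base peak of fold 2.79 (p = 7.56e-07 from the authors) in a composite exon of 3110 bases. The others were RPL28, RBM3, CTSC, KIAA0586, CPM and RPUSD3, with ratios of 0.705 to 0.830. In all, 18 peaks lay in the 17 genes with a ratio below 1, with a median fold of 3.25 and a median p of 0.0303, beside 507 peaks (59.6%) in the 225 genes with a ratio of at least 2.

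Some hosts are uncertain. Exon bases were shared with another gene on the same strand in 69 host genes with 103 peaks, and reads there could belong to either gene. POM121 (4 peaks) and POM121C (1 peak) are near-identical copies whose reads could be split between them. In 8 host genes fewer than 100 reads stood behind the ratio.

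Both proteins named as antibody targets had their own mRNAs in the table. SRSF7 had 807 IP and 343 input reads, a ratio of 1.11 (0.977 to 1.26), and 0 peaks. YTHDF2 had 201 and 77 reads, a ratio of 1.23 (0.942 to 1.62), and its only peak, of fold 2.86 (p = 0.0439 and false discovery rate 0.0809 from the authors) at chr1:28743650-28743850, lay within its exon 7 of 8, of 1584 bases. Both intervals included 1 on the deposited RPKM. This depends on the scaling, since other scalings moved the median log2 ratio of all genes from 0.14 to 0, 0.58 or 1.21. A target's own mRNA does not show which antibody was used.

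The IP library had 5897293 reads assigned to 25556 listed genes and the input 2782045, with 2022 and 4881 genes at 0. All 10 hepatocyte markers examined were present, at 49.1 to 1613 RPKM in the IP and 26.4 to 2814 in the input. Endothelial and fibroblast markers (6 of 8 in the table) reached at most 2.43 and 3.76 RPKM, immune markers 70.2 and 133, and erythroid markers 467 and 738 in the IP and the input. None of the marker genes held a peak within a long internal exon. The part of RNA from other cells in the host gene ratios was not tested.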

How the data were processed

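Per the submitters' processing notes, Trimmomatic and STAR 2.5.3a were used. Peak caller, gene counter, annotation and build were not given in the sources used here. Gene values in the deposited table are RPKM over merged exons, made by the authors. All values were whole multiples of 1 read within 0.01, which gave back the reads; no count test was run, as each group has 1 library. Of genes with 1 to 20 reads, 77.3% had an even number in the IP and in the input, so reads of a pair may be counted singly, and intervals may be too narrow. Each deposited peak has, per the file headers, a score, a false discovery rate, a p-value and a fold (a ratio of IP to input). The authors had a single library of each kind to call from, and the scaling of their folds is not stated. Folds serve here only to describe and rank peaks of this list.

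Peaks went to the gene with the most exonic overlap (at least 1 base). Ratios of single genes are RPKM ratios with exact (Clopper-Pearson based) 95% intervals; medians over genes use log2(RPKM + 1) for a mean of at least 1, which understates changes of low genes, and a fold of 2 counts as called. Coordinates are those of the deposited tables; 14833 of 14834 protein-coding symbols overlapped their RefSeq span on GRCh38.p14. Named peaks were the 10 of smallest p, the 10 of highest fold with a p at or below the list's median, those of the 5 genes with the most peaks (with ties) and the 5 longest exons, the 3 of lowest fold, and in each gene list the 2 hosts of highest and 2 of lowest ratio. Any other gene was picked with its values in view. The members and lists were chosen with earlier results of these data known. The counting steps were tested on simulated data. The scripts ran in Python 3.11.15 with pandas 2.3.3, numpy 2.4.6, matplotlib 3.10.9 and scipy 1.17.1.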

Additional observations from a re-analysis of the deposited data

How the results depend on the processing

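The number of peaks followed the limits: 510 in exons of at least 2000 bases (median fold 2.90), 479 at a false discovery rate of at most 0.05 and 347 at a fold of at least 3. The median log2 ratio of host genes was 0.67 when centred, 1.31 when scaled to genes without a peak, 1.98 at the same RPKM sum, 0.95 and 0.89 with pseudocounts of 0.1 and 0.5, and 0.90 at a mean of at least 5 RPKM. The number of host genes at least 2-fold higher was 109 when centred (23.6%, beside 8.37% of all genes), 354 when scaled to genes without a peak (76.8%, beside 27.7%) and 449 at the same RPKM sum (97.4%, beside 60.6%). The share of long internal exons with a peak was 26.9% at 500 reads, 11.6% at 20 reads, 15.4% for exons of at least 500 bases, 17.9% at 2000 bases and 14.5% for simple exons. The settings on simple exons and folds above 20, and the host gene values without genes that share exon bases, were added after seeing the data. Counts that stayed within 1.5 times included 1262 peaks in exons of at least 500 bases, and 212 and 122 host genes at a pseudocount of 0.1 and at a mean of at least 5 RPKM. None of these results changed direction under the settings run. The order of simple and composite exons, given above, did change with the minimum of reads. No paired analysis was possible because each group has 1 library. The planned comparison of peak sequence with the rest of the exon was not run, as no genome was used here. With 1 library per group, differences between the IP and the input cannot be told apart from differences between single libraries, and peaks in genes of few reads may be missed at this depth.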
